A study of Mus musculus with 17 samples.

Results

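Binding of IRF1, JUNB, CEBPB and MYC was compared within 1 condition, mouse macrophages given interferon gamma (IFNg, 100 ng/ml) together with interleukin 4 (IL4, 10 ng/ml) for 4 h. The members were all sites made by joining the peaks of the 4 lists wherever they overlapped by at least 1 bp, on chromosomes 1 to 19, X and Y and after removal of peaks that overlapped a peak of the input. They numbered 19019, of 55577 regions that the 16 ChIP lists of the series gave by the same rule. The cells were grown for 7 days from bone marrow of C57BL/6 mice in medium conditioned by L929 cells. The titles of the IRF1, JUNB, CEBPB and MYC libraries label them wild type (wt). The labels name no other genotype and do not say how many animals were used. Peaks of the same factors after 4 h of IFNg alone (100 ng/ml; IRF1, JUNB and CEBPB) and in untreated cells, of MYC after 2 h of IFNg+IL4 and after 2 h and 4 h of IL4 alone (10 ng/ml), and of STAT6 after 2 h of IFNg+IL4 or of IL4 alone were used for comparison. Each group was 1 library, so no p-values were computed, and the intervals given in parentheses are exact 95% intervals that cover counting error only.

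The 4 factors belong to different families and recognise different DNA. IRF1 is induced by interferons and binds repeats of the letters GAAA at genes of antigen presentation and antiviral defence. JUNB pairs with FOS, ATF or BATF proteins into AP-1, a dimer that in macrophages sits mostly at enhancers, and CEBPB is a leucine zipper factor that shapes myeloid enhancers together with PU.1. MYC pairs with MAX, binds the E-box near the starts of active genes and drives growth, ribosome production and metabolism. In chromatin immunoprecipitation an antibody pulls down DNA crosslinked to the factor, a peak is a stretch where the reads pile up over the input, and its summit is the base of highest pileup. Overlap of peaks from separate immunoprecipitations does not show that the factors were on the same DNA molecule.

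The IRF1 list held 8226 peaks, the JUNB list 5556, the CEBPB list 6278 and the MYC list 3402, with median widths of 243, 237.5, 230 and 169 bp in that order. The libraries were sequenced to 0.929 (IRF1), 1.225 (JUNB), 1.31 (CEBPB) and 0.368 (MYC) times the depth of the input, as recovered from the peak values, so a site without a MYC peak is not shown to lack MYC. The strength of a peak is given below as its percentile by −log10 p within its own list, where 100 is the strongest, and fold values are the authors' enrichment of the summit over the control. Neither compares levels between factors.

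Promoters of 7 genes show DNA at sites of different make-up, though not every summit lay in the bases shown. Each line gives the 250 bases before the start of the gene on the gene's own strand, from RefSeq on GRCm38.p6. The first 2 are the promoter windows that overlapped a site with all 4 factors. The next 4 overlap the first-ranked site of a combination where that site was a promoter, and the last overlaps a strong site of MYC alone. Capitals mark matches on either strand to 4 motifs, GAAA, any 2 bases and GAAA (IRF), TGANTCA (AP-1), TTGCNNAA (CEBP) and CACGTG (E-box), of which none contains another.
Ddit3 (all 4 factors; chr10:127290543-127290792, plus strand): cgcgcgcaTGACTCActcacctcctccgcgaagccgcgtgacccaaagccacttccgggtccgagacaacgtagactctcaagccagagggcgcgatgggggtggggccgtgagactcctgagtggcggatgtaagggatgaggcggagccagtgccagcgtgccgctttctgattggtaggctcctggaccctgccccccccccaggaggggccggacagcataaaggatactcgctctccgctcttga
Cltc (all 4 factors; chr11:86757568-86757817, minus strand): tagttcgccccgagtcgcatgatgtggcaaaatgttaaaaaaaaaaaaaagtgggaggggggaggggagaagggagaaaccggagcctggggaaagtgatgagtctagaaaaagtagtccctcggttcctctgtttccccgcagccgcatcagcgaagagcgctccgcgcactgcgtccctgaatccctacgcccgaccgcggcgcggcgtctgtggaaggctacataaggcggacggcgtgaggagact
Slamf8 (IRF1, JUNB and MYC; chr1:172590569-172590818, minus strand): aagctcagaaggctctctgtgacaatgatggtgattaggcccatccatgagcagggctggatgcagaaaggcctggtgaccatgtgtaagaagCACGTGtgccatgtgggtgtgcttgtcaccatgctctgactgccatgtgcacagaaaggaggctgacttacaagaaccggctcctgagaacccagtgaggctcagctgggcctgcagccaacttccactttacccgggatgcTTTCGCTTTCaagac
Irf2 (IRF1, CEBPB and MYC; chr8:46739495-46739744, plus strand): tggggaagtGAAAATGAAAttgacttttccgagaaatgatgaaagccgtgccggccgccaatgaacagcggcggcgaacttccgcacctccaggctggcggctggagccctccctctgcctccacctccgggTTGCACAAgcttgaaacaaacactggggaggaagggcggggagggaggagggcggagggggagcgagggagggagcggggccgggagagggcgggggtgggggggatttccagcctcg
Atrnl1 (IRF1 and CEBPB; chr19:57610784-57611033, plus strand): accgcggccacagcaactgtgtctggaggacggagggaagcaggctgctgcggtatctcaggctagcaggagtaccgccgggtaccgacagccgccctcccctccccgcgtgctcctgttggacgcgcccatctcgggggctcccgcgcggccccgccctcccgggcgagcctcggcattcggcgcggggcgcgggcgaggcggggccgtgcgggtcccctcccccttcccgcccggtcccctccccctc
Prmt3 (CEBPB and MYC; chr7:49778108-49778357, plus strand): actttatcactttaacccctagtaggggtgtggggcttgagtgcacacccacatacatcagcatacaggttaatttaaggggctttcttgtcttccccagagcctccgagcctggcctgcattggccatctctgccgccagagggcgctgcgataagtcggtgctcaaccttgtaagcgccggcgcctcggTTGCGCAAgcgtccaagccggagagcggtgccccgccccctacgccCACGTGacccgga
Psme3 (MYC alone; chr11:101315963-101316212, plus strand): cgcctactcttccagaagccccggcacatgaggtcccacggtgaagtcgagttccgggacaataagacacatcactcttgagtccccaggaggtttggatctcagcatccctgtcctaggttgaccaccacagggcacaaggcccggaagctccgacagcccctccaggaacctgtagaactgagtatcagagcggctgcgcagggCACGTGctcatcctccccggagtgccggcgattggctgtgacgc

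The windows of Cltc, the clathrin heavy chain gene, and Atrnl1 held no match to any of the 4 motifs. All 4 summits at Cltc lay inside the window, at −30 (IRF1), −66 (JUNB), −221 (CEBPB) and −21 bp (MYC) from the start. At Atrnl1 the IRF1 and CEBPB summits lay outside the window, at −284 and −913 bp, so the DNA under them was not read. At the other 5 promoters at least 1 summit lay within 12.5 bp of the centre of a match to its own factor's motif. In the promoter of Ddit3, which encodes a CEBP family member of the stress response, the JUNB summit was 7 bp from the centre of the AP-1 match. The IRF1 summit, also inside the window, was 62 bp from that match, and the window held no IRF match. The MYC and CEBPB summits were 12 and 66 bp from the AP-1 match but lay outside the window, at −251 and −305 bp from the start. The window held no E-box or CEBP match, but the DNA around these summits was not fully read. In the promoter of Slamf8, a SLAM family receptor of myeloid cells, the IRF1 summit was 12.5 bp from the IRF match, the JUNB summit 22.5 bp from the same match, and the MYC summit 52.5 bp from the E-box. In the promoter of Irf2, a relative of IRF1 that binds the same DNA, the IRF1 and MYC summits were 9.5 and 1.5 bp from the IRF match, and the CEBPB summit was 43.5 bp from the CEBP match. No E-box stood in that window. In the promoter of Prmt3, an arginine methyltransferase of a ribosomal protein, the CEBPB summit was 11.5 bp from the CEBP match, whereas the MYC summit lay 399 bp after the start and 409.5 bp from the E-box. In the promoter of Psme3, a proteasome activator subunit, the MYC summit was 5.5 bp from the E-box.

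Most sites held a peak of 1 factor. Sites with all 4 factors numbered 52, or 0.273% of all (0.204 to 0.358%), sites with 3 factors 661 (3.48%), sites with 2 factors 2904 (15.3%) and sites with 1 factor 15402 (81.0%). Of the sites with 3 factors, 498 held IRF1, JUNB and CEBPB, and the 3 combinations with MYC held 61 (with IRF1 and JUNB), 36 (with IRF1 and CEBPB) and 66 (with JUNB and CEBPB). Of the sites with 2 factors, 1010 held JUNB and CEBPB and 944 held IRF1 and JUNB. IRF1 and MYC shared 357 and IRF1 and CEBPB 344 with no further factor. The pairs with fewest sites of their own were CEBPB and MYC, 150, and JUNB and MYC, 99. The count of sites with all 4 factors was 8 when each list was cut to its 3402 strongest peaks, and 21 when overlaps had to cover 50% of both peaks.

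**Figure D1:**
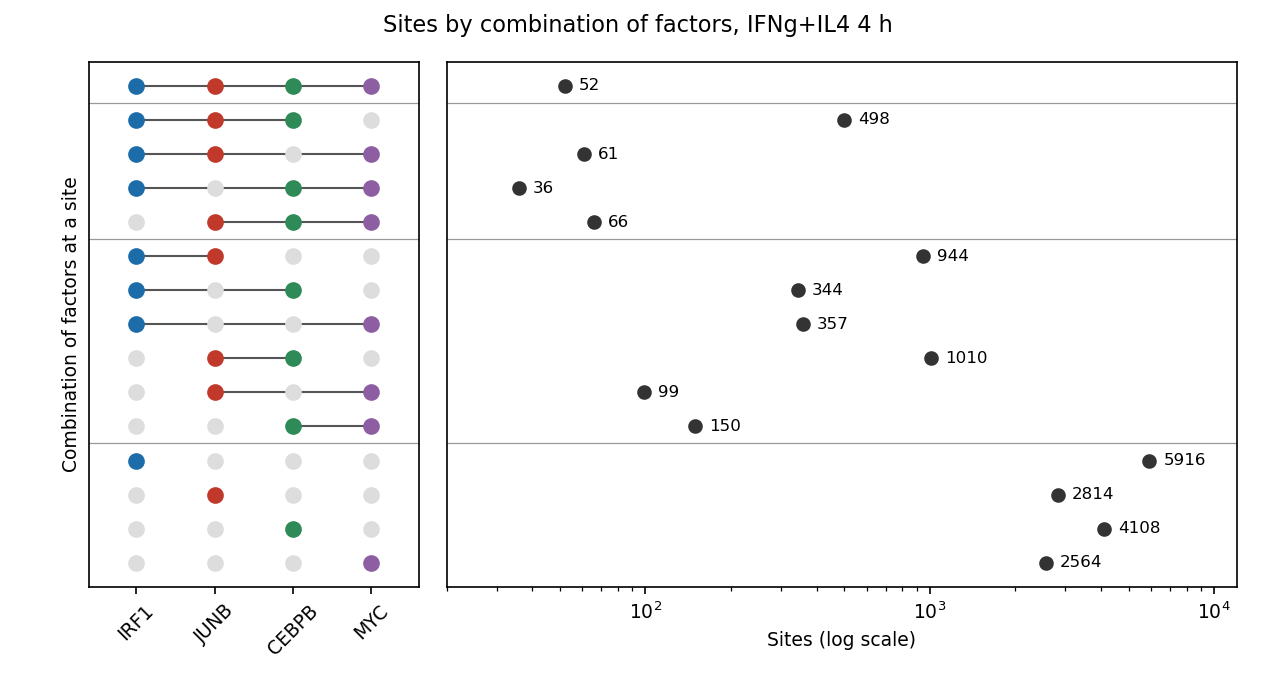
Number of sites (log scale) for each of the 15 combinations of factors, with filled dots on the left naming the factors present and lines separating sites with 4, 3, 2 and 1 factors. Single-factor sites run from 2564 (MYC) to 5916 (IRF1), and among sites with 3 factors the 498 with IRF1, JUNB and CEBPB exceed the 3 combinations that include MYC.

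JUNB stood alone least often. Of JUNB peaks 50.6% (49.3 to 51.97%) overlapped no peak of the other factors, against 65.4% of CEBPB peaks, 71.9% of IRF1 peaks and 75.4% of MYC peaks. Of JUNB peaks 29.3% (28.1 to 30.5%) overlapped a CEBPB peak and 28.1% (27.0 to 29.4%) an IRF1 peak. In the other direction 26.0% of CEBPB peaks and 19.1% of IRF1 peaks overlapped JUNB. CEBPB and IRF1 met less, in 14.7% of CEBPB peaks and 11.3% of IRF1 peaks. Of MYC peaks 15.1% (13.9 to 16.3%) overlapped IRF1, 8.79% overlapped CEBPB and 8.05% overlapped JUNB. These shares depend on the lengths of the lists, which covered 2404 (IRF1), 1468 (JUNB), 1600 (CEBPB) and 712.1 kb (MYC).

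In percentage points the strength of a peak went with sharing most for JUNB with CEBPB and with IRF1. Among the strongest 25% of JUNB peaks 42.0% overlapped CEBPB, against 21.1% of the weakest 25%, and for overlap with IRF1 the shares were 35.4% and 25.7%. For CEBPB peaks with JUNB they were 31.6% and 25.1%, and for CEBPB peaks with MYC 7.13% and 3.76%. For IRF1 peaks with JUNB they were 20.0% and 19.2%. With MYC the IRF1 shares were 10.6% in the strongest 10% of the list and 10.4% in the weakest 10%, and as low as 3.56% in between. MYC went the other way with JUNB, at 3.81% of its strongest and 9.07% of its weakest peaks. The median percentile of JUNB peaks was 68.1 at sites with all 4 factors, 68.4 at sites with 3, 52.55 at sites with 2 and 44.7 alone. The median percentile of MYC peaks was 36.8 at sites with all 4, 45.3 at sites with 3, 52.1 at sites with 2 and 50.0 alone. IRF1 medians lay between 46.5 and 52.55 in all 4 classes. JUNB peaks were also wider at sites of more factors, with medians of 332.5 bp with all 4 and 221 bp alone, and a wider peak has more length to overlap with.

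**Figure D2:**
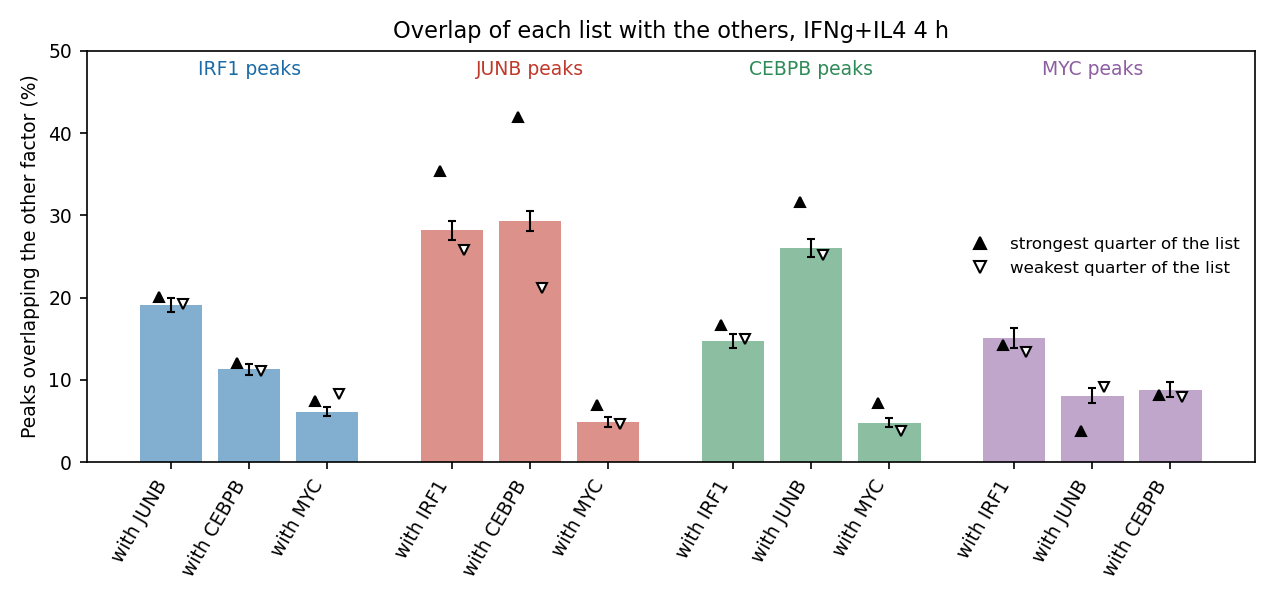
Percentage of the peaks of each list (bars, grouped by list) that overlapped a peak of another factor, with exact 95% intervals, and the same percentage in the strongest (filled triangles) and weakest (open triangles) 25% of the list. JUNB with CEBPB shows the widest gap, 42.0% of the strongest and 21.1% of the weakest JUNB peaks.

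Overlap between IRF1, JUNB and CEBPB was close to that in the lists from IFNg alone once lists were of equal length. With both lists at the shorter length of the 2 conditions, 29.3% of JUNB peaks with IFNg+IL4 overlapped CEBPB, against 27.7% with IFNg. For CEBPB peaks with JUNB it was 26.0% with IFNg+IL4 and 24.2% with IFNg. For IRF1 peaks with JUNB it was 19.6% and 18.7%, and for IRF1 peaks with CEBPB 11.0% and 10.0%, in the same order of conditions. The 6 shares read each pair of factors in both directions, so they are not 6 separate observations. Each was higher with IFNg+IL4. With 1 library per condition it was not tested whether this exceeds the spread between cultures. Without the cut in length 58.1% of JUNB peaks with IFNg overlapped CEBPB, whose list from that library held 21499 peaks. MYC with IFNg alone was not analysed here.

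Summits of different factors at shared sites were close but not at the same base. The median distance was 38 bp between JUNB and CEBPB (36 to 41), 39 bp between IRF1 and JUNB (37 to 42) and 53 bp between IRF1 and CEBPB (47 to 56). With MYC it was 55.5 bp for JUNB (46 to 62), 59 bp for IRF1 (54 to 67) and 67.5 bp for CEBPB (55 to 75). Pairs of libraries of the same factor gave the scale of how well a summit repeats. Between IFNg+IL4 and IFNg the median distance was 12 bp for CEBPB, 21 bp for IRF1 and 23 bp for JUNB, and between 4 h and 2 h of IFNg+IL4 it was 36 bp for MYC. Each of the 6 medians between factors thus exceeded those of both factors between their own libraries. In the stronger 50% of both lists the JUNB and CEBPB median was 35 bp and the IRF1 and MYC median 68 bp. At promoters IRF1 and MYC summits were 66 bp apart (58 to 86) and elsewhere 54.5 bp (36 to 70).

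**Figure D3:**
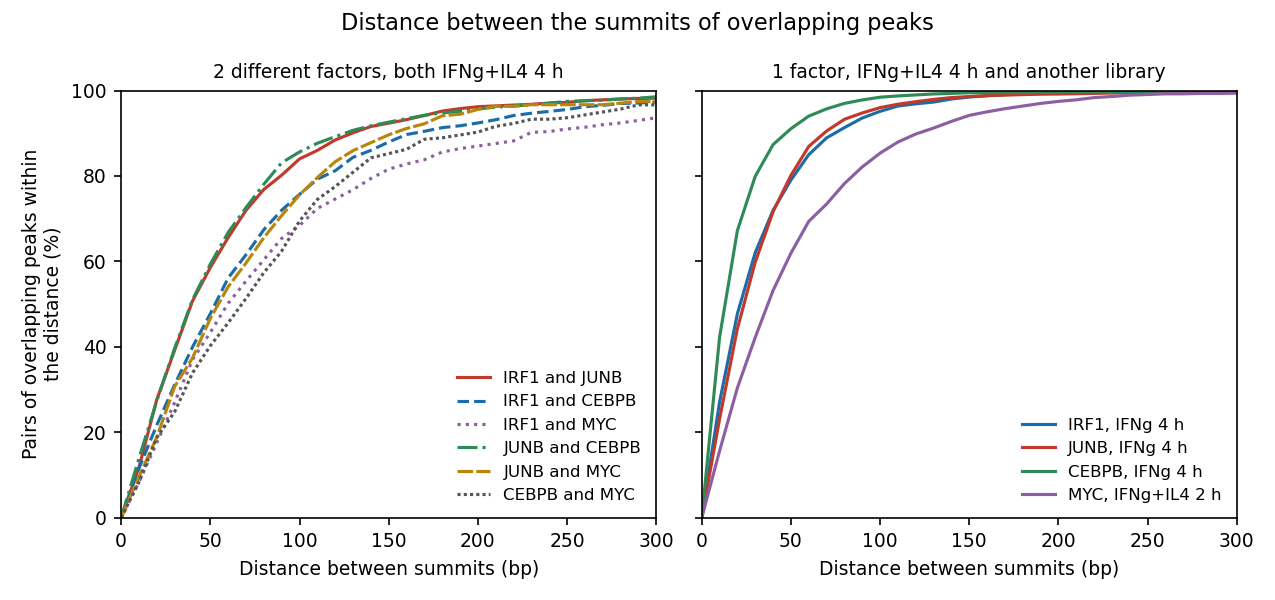
Cumulative percentage of pairs of overlapping peaks whose summits lay within a given distance (bp), for pairs of different factors with IFNg+IL4 4 h (left) and for 1 factor between its IFNg+IL4 4 h library and another library (right). The same-factor curves for CEBPB, IRF1 and JUNB rise faster, with medians of 12, 21 and 23 bp, than any curve between factors, with medians of 38 to 67.5 bp.

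At the 52 sites with all 4 factors the summits spanned a median of 140.5 bp (106 to 187), with a range of 42 to 914 bp. At 17 of the 52 all 4 summits fell within 100 bp. The MYC summit lay a median of 66.5 bp from the middle of the other 3, the IRF1 summit 47.5 bp, the CEBPB summit 37.5 bp and the JUNB summit 33 bp. The interval of the MYC median (46 to 89) did not overlap that of JUNB (20 to 43) but overlapped those of IRF1 and CEBPB. The sites had a median width of 473.5 bp, against 215 bp for sites with 1 factor, and were nearest to 52 different protein-coding genes.

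With overlap of 50% of both peaks 5 of the 12 named sites with all 4 factors kept all 4, and the first 4 of them did not. The site with all 4 factors whose weakest peak ranked highest was inside Pla2g4a, which encodes the phospholipase that releases arachidonic acid (chr1:149840791-149841549). Enrichment there was 24.3-fold for IRF1, 22.5-fold for JUNB, 14.6-fold for CEBPB and 10.4-fold for MYC, each at percentile 81.5 or above in its list. The IRF1 and JUNB summits were at 149841304 and 149841307, the CEBPB summit at 149841364, and the MYC summit at 149841079, 285 bp from that of CEBPB. The second was 167.1 kb from Klf14, a Krüppel-like factor gene (chr6:31125684-31126623), with percentiles of 61.2 to 81.0. Its IRF1 and JUNB summits were at 31126265 and 31126271, and those of CEBPB and MYC at 31125829 and 31125747. The third was inside Cd36, a scavenger receptor for fatty acids and oxidised lipoproteins (chr5:17854263-17854989). It held a JUNB peak at percentile 99.96 (40.4-fold), with IRF1 at 18.2-fold, CEBPB at 11.9-fold and MYC at 7.65-fold, and all 4 summits fell within 87 bp.

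The other 9 of the 12 named sites with all 4 factors had a lowest percentile of 28.7 to 54.5. They were inside Lipk, a lipase gene (chr19:34043137-34043565), and Uhrf1bp1 (chr17:27869152-27869623), 51.6 kb from Pkdcc, a secreted kinase gene (chr17:83276466-83276858), and 284.4 kb from Foxo1, a forkhead factor gene (chr3:52634378-52634658). Others lay 11.8 kb from Ly9, a SLAM family receptor gene (chr1:171619101-171619385), 18.4 kb from Pttg1ip2 (chr5:5419193-5420525) and 20.6 kb from Fcgr4, an Fc receptor for IgG (chr1:170998200-170998650). The last 2 were 19.9 kb from Mrps33, a gene of the mitochondrial ribosome (chr6:39781555-39782074), and 118.9 kb from Uaca (chr9:60999047-60999755). At the Uhrf1bp1 site the 4 summits spanned 54 bp, and at the Ly9 site the IRF1, JUNB and CEBPB summits lay within 4 bp of each other, at 171619255, 171619251 and 171619252. Of the 12 sites, 12 also overlapped a CEBPB peak with IFNg alone, 11 a JUNB peak and 4 an IRF1 peak. Of all peaks with IFNg+IL4, 97.5% (CEBPB), 82.9% (JUNB) and 47.6% (IRF1) overlapped a peak of the same factor with IFNg alone. The CEBPB and JUNB counts at the 12 sites were thus close to the shares over all peaks.

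Sites of 3 factors were ranked in the same way, by their weakest peak. The IRF1, JUNB and CEBPB sites that ranked first were 55.1 kb from Zfp281, a zinc finger factor gene (chr1:136685278-136686005), and 28.0 kb from Ch25h, cholesterol 25-hydroxylase (chr19:34445454-34446075), with every peak at percentile 89.9 or above. At the Ch25h site the 3 summits spanned 62 bp and enrichment was 20.5-fold (IRF1), 18.5-fold (JUNB) and 19.4-fold (CEBPB). The first IRF1, JUNB and MYC site was the Slamf8 promoter shown above, where enrichment was 28.0-fold, 12.4-fold and 13.9-fold. The first IRF1, CEBPB and MYC site was the Irf2 promoter shown above, at 20.0-fold, 21.6-fold and 10.8-fold. JUNB, CEBPB and MYC met 44.6 kb from Ppp1r26 (chr2:28401616-28402024) and 12.8 kb from Auh (chr13:52822085-52822513).

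Among pairs, the strongest JUNB and CEBPB site was inside Nudt13 (chr14:20298071-20298538), at percentiles of 99.4 and 99.1 and with summits 21 bp apart. The strongest IRF1 and MYC site was inside Snx10, a sorting nexin gene (chr6:51544978-51545712), at 38.6-fold and 17.9-fold with summits 11 bp apart. IRF1 and JUNB met 14.9 kb from Arl4a, a small GTPase gene (chr12:40018018-40018595), 32 bp apart, and JUNB and MYC 122.5 kb from Klf14 (chr6:31081268-31081645), 21 bp apart. The IRF1 and CEBPB site at Atrnl1 (chr19:57609791-57611000) held summits 629 bp apart, and the CEBPB and MYC site at Prmt3 (chr7:49778034-49778917) held summits 466 bp apart, at percentiles of 99.7 and 99.5. The 3 strongest sites of IRF1 alone were 32.6 kb from Hes1, a repressor gene (chr16:30032272-30032882), 94.1 kb from Ralgapa2 and 12.6 kb from Tspan17. Those of JUNB alone were 17.2 kb from Macc1 and inside Syne1 and Npas4. Those of CEBPB alone were 0.091 kb from Cotl1, an actin-binding protein gene (chr8:119840307-119840959), and inside Rarg, a retinoic acid receptor gene, and Emilin2. Those of MYC alone were 7.74 kb from Myo1g, at the Psme3 promoter and inside Pemt.

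MYC lay at promoters and the other 3 factors mostly away from them. Positions were read for the 79.4% (JUNB) to 82.3% (MYC) of peaks whose nearest protein-coding gene had a start in the promoter table. Of these MYC peaks 70.8% (69.0 to 72.4%) had their summit within 1 kb of a start, against 16.3% of IRF1 peaks, 10.9% of CEBPB peaks and 5.46% of JUNB peaks. The median distance to a start was 258 bp for MYC, 18520 bp for IRF1, 21117 bp for CEBPB and 28387 bp for JUNB. Of STAT6 peaks after 2 h of IFNg+IL4 16.1% were within 1 kb. At promoters the MYC summits were centred on the start, with a median offset of −5 bp and 48.1% of them downstream in the direction of transcription. IRF1, JUNB and CEBPB summits were centred before it, with medians of −42, −72 and −75 bp.

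**Figure D4:**
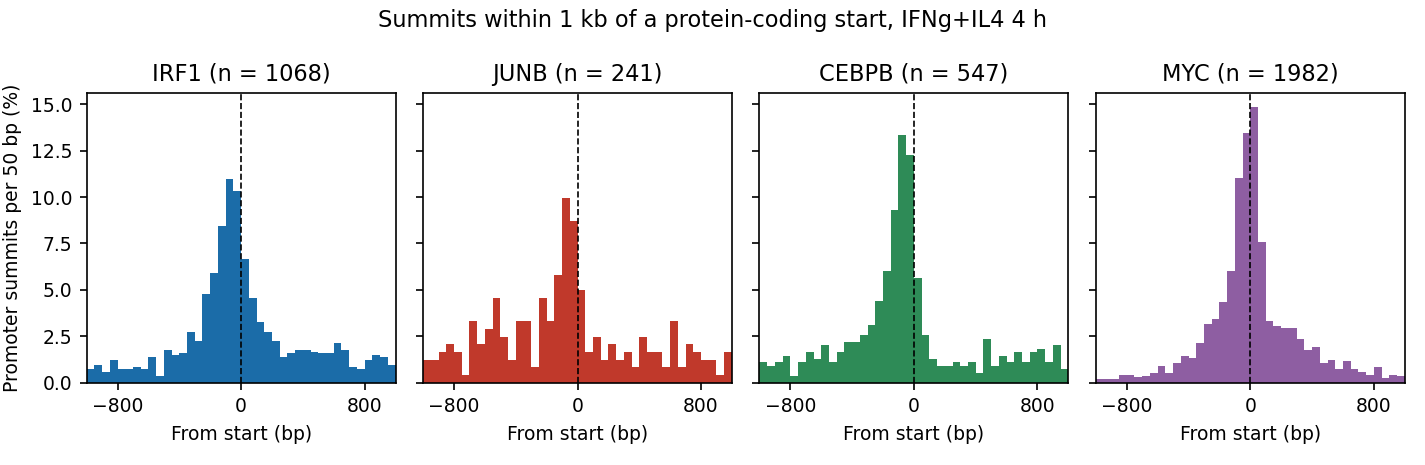
Distribution of summits within 1 kb of a protein-coding start (dashed line), in bins of 50 bp as percentage of the promoter summits of each factor, with negative values before the start. The numbers of summits were 1068 (IRF1), 241 (JUNB), 547 (CEBPB) and 1982 (MYC). The MYC distribution is centred at the start and the others just before it.

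The make-up of a site went with its position. Of IRF1 and MYC sites 70.2% (64.5 to 75.4%) were within 1 kb of a start, of CEBPB and MYC sites 53.7%, and of IRF1, CEBPB and MYC sites 48.3% (29.5 to 67.5%). Sites of MYC alone were at 77.8%. Once JUNB was present with MYC the share was lower, at 24.6% for IRF1, JUNB and MYC, 13.5% for JUNB and MYC, and 7.55% for JUNB, CEBPB and MYC. Sites of JUNB and CEBPB were at promoters in 3.95% of cases (2.72 to 5.53%) and those of IRF1, JUNB and CEBPB in 5.17%. Of the 37 sites with all 4 factors that could be placed, 4 were promoters, 11 lay elsewhere inside genes and the others outside. Over all sites the promoter share was 10.8% with 4 factors, 9.89% with 3, 16.3% with 2 and 23.4% with 1.

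The motif of a factor was more frequent in promoter windows where that factor had its summit than in all windows. The window ran from 250 bases before to 50 after each start, and 21262 windows were searched on both strands. They belonged to 17491 genes, so windows of nearby starts can overlap and share a summit or a match. The intervals below count each window as separate. The AP-1 motif was in 43.9% of the 98 windows with a JUNB summit (33.9 to 54.3%), against 6.99% of all windows. The CEBP motif was in 38.2% of the 314 windows with a CEBPB summit, against 10.2% of all. The E-box was in 25.5% of the 1242 windows with a MYC summit, against 7.84% of all, and the IRF motif in 18.5% of the 585 windows with an IRF1 summit, against 3.35% of all. The IRF motif was also in 12.2% of windows with a JUNB summit (6.49 to 20.4%), and the E-box in 13.4% of windows with a CEBPB summit (9.81 to 17.6%). Some of these windows held summits of other factors too. Without those windows the shares were 10.9% (3.6 to 23.6%) for the IRF motif and 11.2% (7.35 to 16.0%) for the E-box. The E-box interval then included the share of all windows. AP-1 and CEBP motifs were in 2.98% and 5.31% of windows with a MYC summit, below the share of all windows. Where the own motif was present its centre lay a median of 7.5 bp (CEBPB), 15 bp (IRF1), 19 bp (JUNB) and 26.5 bp (MYC) from the summit. A match is a description of the letters and was not tested as a binding site.

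Sites of more factors more often also held STAT6, which the IL4 receptor activates. A STAT6 peak after 2 h of IFNg+IL4 overlapped 96.2% of sites with all 4 factors (86.8 to 99.5%), 92.1% of sites with 3, 71.1% of sites with 2 and 35.0% of sites with 1. The intervals of the first 2 of these shares overlapped. Since wider sites overlap more, the STAT6 summit was also required to lie within 100 bp of the middle of the summits. The shares were then 80.8%, 79.4%, 61.1% and 28.4% in the same order. Among sites with 2 factors the share by overlap was highest for JUNB and CEBPB (81.4%, 78.9 to 83.7%) and JUNB and MYC (79.8%, 70.5 to 87.2%). It was lowest for CEBPB and MYC (58.7%, 50.3 to 66.6%) and IRF1 and MYC (60.5%, 55.2 to 65.6%), whose intervals overlapped. Alone, JUNB sites held STAT6 in 53.9%, CEBPB sites in 38.7%, MYC sites in 29.9% and IRF1 sites in 25.7%. STAT6 peaks after 2 h of IL4 alone overlapped 94.2% of sites with all 4 factors, 82.9% with 3, 63.8% with 2 and 35.05% with 1. The rise with the number of factors was thus also present for STAT6 with IL4 alone. The STAT6 cells were treated for 2 h rather than 4 h. The STAT6 list held 21481 peaks with IFNg+IL4 and 24927 with IL4 alone.

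JUNB peaks at sites of IRF1 and JUNB, and CEBPB peaks at sites of IRF1 and CEBPB, were mostly present with IFNg alone, but in untreated cells in a smaller share than peaks without IRF1. Of JUNB peaks at sites of IRF1 and JUNB 87.0% were in the IFNg JUNB list, against 86.6% at sites of JUNB and CEBPB and 79.1% of JUNB peaks alone. In the untreated JUNB list the shares were 37.6% (34.5 to 40.8%) at sites of IRF1 and JUNB, 86.9% (84.6 to 88.9%) at sites of JUNB and CEBPB and 62.0% (60.2 to 63.8%) alone. Of CEBPB peaks 94.0% or more were in the IFNg CEBPB list in each of the 8 combinations that hold CEBPB. In the untreated CEBPB list the shares were 40.4% (35.2 to 45.8%) at sites of IRF1 and CEBPB and 40.9% at sites of IRF1, JUNB and CEBPB. At sites of JUNB and CEBPB it was 62.2%, at sites of CEBPB and MYC 78.0% and at sites of CEBPB alone 74.3% (73.0 to 75.7%). At sites that held a further factor beside IRF1 the untreated JUNB shares were not below that of JUNB alone. They were below those at sites of the same factors without IRF1. At sites of IRF1, JUNB and CEBPB the share was 67.8% (63.5 to 71.9%), against the 86.9% at sites of JUNB and CEBPB. At sites of IRF1, JUNB and MYC it was 66.1% (53.0 to 77.7%), against 86.9% (78.6 to 92.8%) at sites of JUNB and MYC. At sites with all 4 it was 69.2% (54.9 to 81.3%), against 87.9% (77.5 to 94.6%) at sites of JUNB, CEBPB and MYC. The intervals of this last pair overlapped. Of the 36 CEBPB peaks at sites of IRF1, CEBPB and MYC 61.1% (43.5 to 76.9%) were in the untreated CEBPB list.

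The strength of the peaks was compared beside these shares. Within the stronger 50% of the JUNB list the untreated shares were 45.7% (IRF1 and JUNB), 93.0% (JUNB and CEBPB) and 68.2% (JUNB alone). Within the stronger 50% of the CEBPB list they were 64.1% (IRF1 and CEBPB), 85.6% (JUNB and CEBPB) and 91.7% (CEBPB alone). The untreated JUNB list also held peaks below the threshold of the other lists, and without them the shares were 24.6% (IRF1 and JUNB), 77.6% (JUNB and CEBPB) and 50.5% (JUNB alone). The order of the 3 classes was the same in each of these forms.

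**Figure D5:**
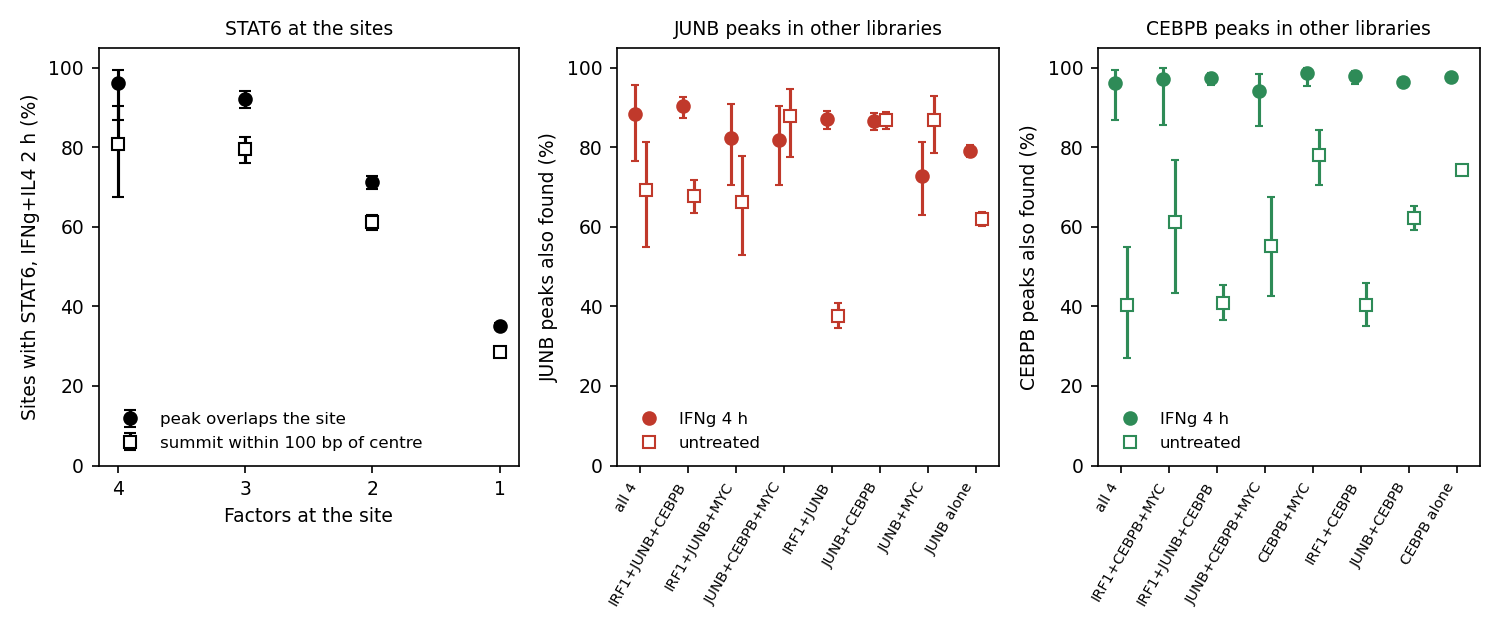
Left, percentage of sites with 4, 3, 2 and 1 factors that held STAT6 after 2 h of IFNg+IL4, by overlap (filled) and by a summit within 100 bp of the site centre (open). Middle and right, percentage of JUNB and CEBPB peaks of each combination that were also in the list from IFNg 4 h (filled) and from untreated cells (open); bars are exact 95% intervals. Untreated shares are lowest at sites of IRF1 and JUNB (37.6%) among JUNB peaks, and at sites with all 4 and at sites of IRF1 and CEBPB (40.4% each) among CEBPB peaks.

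MYC peaks at sites of many factors were in a smaller share in other MYC libraries than MYC peaks alone. Of the 54 MYC peaks at sites with all 4 factors 40.7% (27.6 to 54.97%) were in the list from 2 h of IFNg+IL4 and 74.1% (60.3 to 85.0%) in that from 4 h of IL4. Of MYC peaks alone the shares were 59.0% and 96.1%. The MYC peaks at sites with all 4 were weaker, with a median percentile of 36.8 against 50.0 alone. Among those in the stronger 50% of the list 90.9% were in the IL4 4 h list, against 98.7% of those alone. Of IRF1 peaks 32.7% (20.3 to 47.1%) at sites with all 4 factors were in the IFNg list, 39.5% (35.5 to 43.5%) at sites with 3, 50.0% at sites with 2 and 47.9% alone. The IFNg library of IRF1 was shallower, at 0.447 times the input, and held 4189 peaks. In untreated cells IRF1 had 244 peaks, which overlapped 0 of the 52 IRF1 peaks at sites with all 4. At sites of IRF1 and MYC they overlapped 14.7% of IRF1 peaks (11.2 to 18.8%), against 2.87% of IRF1 peaks alone.

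Genes near each factor were counted with a window of 20 kb around the gene. An IRF1 peak lay in this window for 29.7% of the 21883 protein-coding genes, a JUNB peak for 16.8%, a CEBPB peak for 22.4% and a MYC peak for 22.6%. At least 1 factor was near 50.3% of genes, all 4 were near 2.51% (549 genes), and a site holding all 4 was near 0.27% (59 genes). Genes on the lists below were shorter than the median gene (6.92 to 13.45 kb over the lists, against 17.2 kb), and neighbours can share peaks.

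Among 35 genes of the IFNg response 31 had an IRF1 peak, 18 JUNB, 19 CEBPB and 19 MYC, each a larger share than over all genes, and 2 had all 4. The number with all 4 was 1 with a −log10 q of at least 5, and 1 with lists of equal length. Near Cd274, the gene of the T cell inhibitory ligand PD-L1, IRF1 had 5 peaks, JUNB 4, CEBPB 1 and MYC 1, over 7 sites. The strongest, at −0.341 kb from the start (chr19:29366874-29367544), held IRF1 at 24.3-fold (percentile 96.0) with JUNB at 5.35-fold and MYC at 6.18-fold. Near Cd40, a costimulatory receptor, all 4 factors met at 1 site 0.429 kb from the gene (chr2:165054997-165055546). Enrichment there was 15.1-fold for IRF1 and 8.63-fold for MYC, but the CEBPB peak was at percentile 1.58. Socs1, an inhibitor of JAK kinases, had 8 IRF1, 3 JUNB and 1 MYC peaks, and B2m, beta-2 microglobulin of MHC class I molecules, had 5, 2 and 1. Gbp3 and Gbp5, guanylate-binding proteins, each had 4 IRF1 and 2 JUNB peaks, with 2 and 4 of CEBPB and no MYC. Irf8, Rsad2, Ciita and Cxcl10 had 3 factors each, and Il12b, named here after its values were seen, had no peak.

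Among 30 genes of the IL4 response 16 had an IRF1 peak, 14 JUNB, 20 CEBPB and 6 MYC, and 3 had all 4. With a −log10 q of at least 5 that number was 0, and with lists of equal length 1. The MYC count was close to the share over all genes and the other counts were above it. Near Arg1, the arginase of alternatively activated macrophages, the factors were spread over 3 sites. IRF1 and JUNB met 0.754 kb from the gene (chr10:24927927-24928286, 6.45-fold and 8.04-fold) and were joined by CEBPB at 2.89 kb (chr10:24930154-24930528, 5.21-fold, 5.77-fold and 12.2-fold). On the other side of the gene, 3.74 kb away (chr10:24911166-24911667), a CEBPB peak of 18.6-fold overlapped a MYC peak at percentile 6.47. Near Il4ra, which encodes the alpha chain of the IL4 receptor, 7 sites held 2 IRF1, 1 JUNB, 4 CEBPB and 1 MYC peaks, and IRF1 and CEBPB shared 1 of them. Near Batf3, an AP-1 partner, 6 sites included 1 of IRF1, JUNB and CEBPB together. Pdcd1lg2, which encodes PD-L2, had 5 IRF1, 4 JUNB and 9 CEBPB peaks and no MYC peak. Flt1, Pparg, Cish, Slc7a2, Bcl6 and Il1rn likewise had the 3 factors without MYC.

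Genes of ribosome biogenesis and growth were near MYC in 29 of 30 cases. They were near IRF1 in 11, JUNB in 6 and CEBPB in 6, counts close to the shares over all genes. Ccnd2, a cyclin gene, was the member without a MYC peak. Only Eif4a1, a helicase of translation initiation, had all 4, and with lists of equal length it had 2. Within it IRF1, CEBPB and MYC met at 1 site (chr11:69671192-69671720), at 7.38-fold, 21.2-fold and 22.5-fold. Polr1a, a subunit of RNA polymerase I, had 3 MYC, 2 IRF1 and 2 JUNB peaks, and Wdr43 and Nop56, both of nucleolar RNA processing, had 4 and 3 MYC peaks with 1 of IRF1 each.

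Inflammatory and AP-1 genes were near CEBPB in 24 of 30 cases, JUNB in 19, IRF1 in 14 and MYC in 7, the last close to the share over all genes. All 4 factors were near Fosl2, Nfkbiz and Tnf. The number of such genes was 1 with a −log10 q of at least 5, and 0 with lists of equal length. Near Tnf all 4 met at 1 site, 8.30 kb before the start (chr17:35209897-35210562), so a window of 5 kb held none of them. IRF1 was at 10.3-fold and JUNB at 6.89-fold there, whereas CEBPB and MYC were at percentiles of 1.58 and 3.07. Ccl2, a monocyte chemokine, had 5 JUNB, 4 CEBPB and 2 IRF1 peaks, and Socs3 had 3 JUNB, 1 CEBPB and 2 MYC peaks without IRF1.

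Among 25 macrophage identity genes 21 had an IRF1 peak, 18 JUNB, 22 CEBPB and 7 MYC. Only the MYC count was close to the share over all genes, and the others were above it. All 4 factors were near Cd68, Tyrobp, Cd36 and Fcgr1. The number of such genes was still 4 with a −log10 q of at least 5, and 2 with lists of equal length. Cd68 adjoins Eif4a1 and shares its peaks. Inside Cd36 JUNB and CEBPB also met at 3 further sites, at 8.63-fold to 9.41-fold for JUNB and 10.1-fold to 18.6-fold for CEBPB. Among 25 markers of cells other than macrophages (lymphocytes, neutrophils, stromal and endothelial cells and others) 6 had an IRF1 peak, 6 JUNB, 6 CEBPB and 1 MYC, and 15 had no peak of the 4. With 25 genes the IRF1, JUNB and CEBPB counts are close to the shares over all genes. Among 25 genes of other organs 1 had an IRF1 peak, 2 JUNB, 3 CEBPB and 1 MYC, and 21 had none.

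The counts at the genes of the 4 factors depended on the window. With 5 kb in place of 20 kb, 0 factors were near Irf1, 3 near Junb, 0 near Cebpb and 1 near Myc, and with 50 kb 1 was near Irf1 and 3 near each of the others. Irf1 had 5 IRF1 peaks within 20 kb and no peak of the others, at 4.99-fold to 9.19-fold. Junb had 3 IRF1 peaks (16.6-fold to 25.9-fold), 4 MYC and 2 CEBPB peaks and none of JUNB, with IRF1 and CEBPB together 1.15 kb before the start (chr8:84979693-84980268). Cebpb had 1 peak, of IRF1, at 38.3-fold and percentile 99.6, 7.68 kb from the gene (chr2:167697894-167698376). Myc had 2 JUNB and 2 CEBPB peaks, 1 pair of them together 9.46 kb from the gene (chr15:61999557-62000033), and no MYC peak. Of 24 genes of the factors and their partners, 19 were near IRF1, 10 near JUNB, 14 near CEBPB and 16 near MYC, each a larger share than over all genes. Of these genes 5 were near all 4, namely Irf2, Batf3, Cebpa, Ddit3 and Fosl2. That number was 3 with a −log10 q of at least 5, and 1 with lists of equal length. Irf2 had 12 sites, among them a site with all 4 factors inside the gene, 38.6 kb after the start (chr8:46778154-46778544). Mnt, a partner of MAX that opposes MYC, had 6 MYC peaks, more than any other gene of that list.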

How the data were processed

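The 17 libraries were chromatin immunoprecipitations (16, with 10 ug of antibody each) and 1 input (139 peaks). The submitters' processing notes name Bowtie2 2.2.6, MACS2 2.1.0.20150731 and the build mm10 (GRCm38); the other settings were not stated in the sources used here. The deposited peak lists give for each peak a score, the authors' fold enrichment at the summit, its −log10 p and −log10 q, and the summit as an offset in bp. The fold and −log10 values were used as the authors gave them and only within a list. The read depth is unknown; the depth relative to the input was recovered from fold and −log10 p and is an estimate.

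Peaks of the 4 lists were joined by overlaps of at least 1 bp, after 10 (IRF1) and 32 (MYC) peaks on input peaks were removed. Genes, starts and promoter sequences were from RefSeq tables of GRCm38.p6 (21883 protein-coding genes). Starts were missing for 4392 of these, so positions were read only where the nearest gene had a start, and sites are named by the nearest gene span rather than the nearest start. A promoter was within 1 kb of a start, and a gene was near a summit within 20 kb of its span. Shares have exact Clopper-Pearson 95% intervals and medians order-statistic intervals. No test was made, since each group was 1 library. Named sites were the first of each combination by the lowest percentile of their peaks, and named genes the first of each list by number of factors and then of sites, with those of the 4 factors added. Members, lists and motifs were chosen with earlier results of these data known. Alternatives were overlap of 50% of both peaks, summits within 100 bp, a −log10 q of at least 5, lists of equal length, input peaks kept, and other promoter and gene windows. Python 3.11.15, numpy 2.4.6, pandas 2.3.3, scipy 1.17.1 and matplotlib 3.10.9 were used, and the joining and depth steps were tested on simulated lists.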

Additional observations from a re-analysis of the deposited data

How the results depend on the processing

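No paired analysis was possible because each group was 1 library and no result came from a test. Keeping input peaks left the 19 main results recomputed with them, which leave out the 4 STAT6 shares, within their intervals or within 1.5 times. With overlap of 50% of both peaks there were 21 sites with all 4 factors, 12.5% of sites held 2 or more, and pair sites numbered 597 (IRF1 and CEBPB), 221 (IRF1 and MYC), 132 (JUNB and MYC) and 155 (CEBPB and MYC). Summit medians were then 36 bp (IRF1 and JUNB), 45 bp (IRF1 and CEBPB), 46.5 bp (IRF1 and MYC), 35 bp (JUNB and CEBPB), 43 bp (JUNB and MYC) and 44 bp (CEBPB and MYC). With summits within 100 bp the numbers were 30 sites with all 4 and 15.7% with 2 or more. With a −log10 q of at least 5 they were 29 and 17.8%, the IRF1 promoter share was 15.3%, and STAT6 shares were 100% (all 4 factors), 73.2% (2) and 36.6% (1). With equal list lengths there were 8 sites with all 4 and 13.1% with 2 or more. Pair sites then numbered 423 (IRF1 and JUNB), 206 (IRF1 and CEBPB), 213 (IRF1 and MYC), 676 (JUNB and CEBPB), 180 (JUNB and MYC) and 192 (CEBPB and MYC). Summit medians were 35 bp (IRF1 and JUNB), 70 bp (IRF1 and MYC) and 35 bp (JUNB and CEBPB), promoter shares 4.47% (JUNB) and 12.1% (CEBPB), and STAT6 shares 100%, 94.6%, 77.6% and 43.3% for 4, 3, 2 and 1 factors.

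Promoter shares for IRF1, JUNB, CEBPB and MYC in that order were 12.7%, 3.49%, 8.16% and 63.2% within 500 bp, and 22.0%, 10.0%, 16.6% and 75.04% within 2500 bp. The following settings were chosen after seeing the data. With all peaks counted the shares were 13.1%, 4.43%, 8.81% and 59.2%, with either end of all gene spans MYC was at 63.9%, and STAT6 summits within 100 bp gave 80.8%, 79.4%, 61.1% and 28.4% for 4, 3, 2 and 1 factors. Genes near all 4 factors numbered 265 in a 5 kb window, 1507 in a 50 kb window and 170 with equal list lengths. Of 38 named sites 38 kept their number of factors with the q setting, 31 with equal lengths, 29 with summits within 100 bp and 25 with overlap of 50%. Of the 12 named sites with all 4, 5 kept all 4 with overlap of 50%, 7 with summits within 100 bp and 5 with equal lengths. Of 59 named genes 50 kept theirs with the q setting, 31 with equal lengths, 34 with a 5 kb and 47 with a 50 kb window. The order of the promoter shares (MYC, IRF1, CEBPB, JUNB) was the same in each setting. With 1 library per group the spread between cultures is unknown, and the shallow MYC library limits every count that includes MYC.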
